A study of Mus musculus with 41 samples.

Results

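The complement components described here are the 8 genes C1qa, C1qb, C1r, C1s, C2, C3, C3ar1 and Cfb, found on the arrays as every spot whose gene name equals one of these symbols. They are carried by 13 of the 41174 probes, and by 8 of the 27962 gene names, and all probes were kept apart. RNA from lung and liver of adult female C57BL/6 mice (C57BL/6BomTac in the study's methods) was measured after whole-body inhalation. The exposed mice breathed surface-coated nanoTiO2 (rutile-enriched titanium dioxide particles of nanometer size) at 40 mg/m3, as the labels give it, for 1 hr per day on 11 days, and control mice breathed filtered air on the same schedule. Tissue was taken 5 days after the last exposure. The labels name no genetic change, and give the age of the mice only as equivalent to GD4, since these were time-mated females that had not conceived. There were 7 exposed and 6 control lungs, and 7 exposed and 8 control livers, each from 1 mouse on 1 array. For 12 mice both tissues were measured.

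On each 2-color array the RNA of the mouse carried Cy5 and a pooled reference RNA from 11 mouse cell lines carried Cy3, without a dye swap. A value below is the log2 ratio of mouse over reference for 1 probe. It allows the same probe to be compared between mice, but not 1 probe with another. The share of spots that the scanner software called well above background in Cy5 was 61.3% to 67.5% in lung and 55.1% to 70.5% in liver. Exposed samples lay at the first positions of a slide and control samples at the last, and the effects of position and exposure cannot be told apart. In whole tissue, fewer cells of a type and less RNA per cell cannot be told apart either. Markers matched the tissue labels, in that the lung epithelium list averaged a log2 ratio of 4.83 to 5.28 in lungs and -0.08 to 0.22 in livers without background correction. The background correction planned as the main setting failed on 6 arrays. Its fitted Cy5 background mean was -120, -199 and -444 on the arrays of exposed lungs 1, 12 and 23, against -7.14 to -4.44 on the other lung arrays. It was -686, -643 and -47.9 for control livers 24, 26 and 27, against -16.5 to -6.83 on the other liver arrays. On those arrays the log2 ratios of several complement probes lay closer to 0 than without correction. The C3 probe A_52_P133594, for example, had planned log2 ratios of 0.19, 0.18 and 0.34 in exposed lungs 1, 12 and 23, and 1.08, 1.29 and 1.31 in the same lungs without background correction. The values of single mice are therefore given without background correction, an alternative listed together with the planned one. The lung differences of the complement probes are given under both. When spots with a flagged local background were also left out of the background model, its mean lay between -5.16 and -4.12 on every lung array and between -8.44 and -6.2 on every liver array. Differences under that setting, which was added after the values were seen, are quoted where they matter.

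Complement is a cascade of plasma and cell-surface proteins that marks particles, microbes and dying cells for uptake. In the classical pathway, C1q (built from the chains of C1qa, C1qb and C1qc) binds a target, and the proteases C1r and C1s that travel with it then cut C4 and C2. In the alternative pathway, factor B, the product of Cfb, joins activated C3 and supplies the protease. Both routes split C3, whose larger fragment coats the target and whose smaller fragment, C3a, is read by the receptor C3ar1. Hepatocytes make most of the circulating C3, C2, factor B, C1r and C1s, whereas macrophages are the main source of C1q. Lung epithelium, fibroblasts and macrophages also make complement locally.

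The probe sequences are shown because the arrays read each gene only through 60 bases, and because probes of the same gene behaved differently. Sequences and coordinates come from the deposited array files and refer to the mm7 build of the mouse genome. No annotation of that build was used here, so exon and intron positions are not given. The first line shows only the first 30 bases of a C3 probe that may lie outside the coding sequence. The capitals in the C2 line mark the codons around the active-site serine of its protease domain, and in the other lines nothing is marked.
C3 probe 1 (A_51_P110301): attcacagaatctatggtggtttatggttg
C3 probe 2 (A_52_P133594): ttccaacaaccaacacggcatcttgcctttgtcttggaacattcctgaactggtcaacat
C1r probe 2 (A_52_P114260): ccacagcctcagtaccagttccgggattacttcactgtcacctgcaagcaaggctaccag
C1s probe 2 (A_52_P634218): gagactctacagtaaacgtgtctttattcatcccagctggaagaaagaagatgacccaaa
C2 probe 2 (A_52_P428699): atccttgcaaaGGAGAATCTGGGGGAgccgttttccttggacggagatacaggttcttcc
Cfb (A_51_P413866): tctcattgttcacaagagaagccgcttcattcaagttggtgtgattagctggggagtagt
C1qa (A_51_P181451): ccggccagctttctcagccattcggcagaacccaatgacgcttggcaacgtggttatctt
C1qb (A_51_P351860): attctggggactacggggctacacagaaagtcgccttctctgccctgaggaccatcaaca

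The whole of C3 probe 1 lies at chr17:55414567-55414626 and C3 probe 2 at chr17:55435522-55435679, both on the minus strand. The latter spans 158 bases of genome for its 60 bases of RNA. The C1q probes lie near each other on the minus strand of chromosome 4, C1qa at chr4:136274931-136274990 and C1qb at chr4:136259100-136259159. The C1r and C1s probes share a region of chromosome 6. C1r probe 1 (A_51_P384318) lies at chr6:124605948-124606007 and C1r probe 2 at chr6:124600159-124600218, both on the plus strand and 5789 bases apart from start to start. The array files describe C1r probe 2 from a record of C1rb, a near-identical neighboring copy of C1r, so that the signal of the copies may be mixed. C1s probe 1 (A_51_P208793) at chr6:124555678-124555737 and C1s probe 2 at chr6:124556317-124556376 lie 639 bases apart on the minus strand, and C1s also has a near-identical copy. Factor B and C2 are neighbors on chromosome 17. The Cfb probe lies at chr17:32952681-32953037, C2 probe 1 (A_51_P497985) at chr17:32958754-32958813 and C2 probe 2 at chr17:32959305-32959480, all on the minus strand. The C3ar1 probes lie at chr6:122885185-122885244 (probe 1, A_51_P282557) and chr6:122885659-122885718 (probe 2, A_52_P81345) on the minus strand.

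The comparison of exposed with control lungs asks whether inhaled nanoTiO2 was followed by more complement mRNA in lung tissue. With the planned correction, 22 of 41172 probes (0.0534%) passed an adjusted p of 0.05 from limma, 18 of them (0.0437%) higher in exposed lungs. None of the 13 complement probes passed, although 7 of the 13 had an unadjusted p under 0.05. Across all probes 6072 had an unadjusted p under 0.05. Without background correction 85 probes (0.206%) passed, 74 of them (0.18%) higher in exposed lungs. Among the latter were C3 probe 1 and C1r probe 2. With the flagged local backgrounds left out 91 probes passed (0.221%), of which 82 (0.199%) were higher, and 3 of those were complement probes, namely C3 probe 1 and both C1r probes. All 13 complement probes had a positive difference without background correction, from 0.06 to 0.55 with a median of 0.25, whereas 50.8% of all probes did, with a median of 0.0011. The planned correction left 7 positive and 6 negative, with a median of 0.09. Without background correction every exposed lung lay above every control lung for 3 complement probes, and for 141 of the 41030 probes (0.344%) with complete values. No complement probe was lower in every exposed lung, which was the case for 59 probes (0.144%). The planned correction separated 2 complement probes upward, C1r probe 2 and C1s probe 2, and none downward, against 106 (0.258%) and 124 (0.302%) of all probes. The members were chosen with earlier results of these data known. The paper lists C3, C1s, C3ar1, C1qb, C1r and C1rb as raised on the arrays, and C3 also by real-time PCR and a PCR array. The shares of members that were higher or separated therefore describe the members and are no independent support.

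C3 is the component on which all routes of activation converge. For C3 probe 1, log2 ratios without background correction ran from 2.81 over a median of 3.02 to 3.18 in the 7 exposed lungs. They ran from 2.23 over a median of 2.44 to 2.77 in the 6 control lungs. Every exposed lung was above every control lung, with exposed lung 7 lowest of its group and control lung 32 highest of the controls. The means were 3.01 ± 0.12 (SD, n = 7) and 2.46 ± 0.20 (SD, n = 6), a difference of 0.55 ± 0.08 (SE) or 1.46-fold. The adjusted p from limma was 0.0109, and the exact two-sided permutation p was 0.000583, the smallest that the 1716 splits allow. With the planned correction the difference was 0.46 and its adjusted p 0.177, and 6 of 7 exposed lungs exceeded every control lung. Leaving out each lung in turn without background correction gave differences of 0.50 to 0.61 with adjusted p-values of 0.00233 to 0.0356, so that C3 probe 1 passed in all 13 fits. With slide as a fixed block and no correction, where 86 probes (0.209%) passed, its difference was 0.54 and its adjusted p 0.054, so that it no longer passed. The difference was positive within each of the 3 slides that held both groups, from 0.41 to 0.79. This probe was printed as 10 spots per array, and the SD between its spots within a lung array was 0.04 to 0.12. For 7 spots taken alone, every exposed lung was above every control lung. A spot marked in any lung was not compared, and exposed lung 12 and control lung 27 each kept 9 of the 10 spots. The change lay in the mouse channel. With each channel centered on the array's median, Cy5 differed by 0.58 and the reference channel by -0.03.

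**Figure D1:**
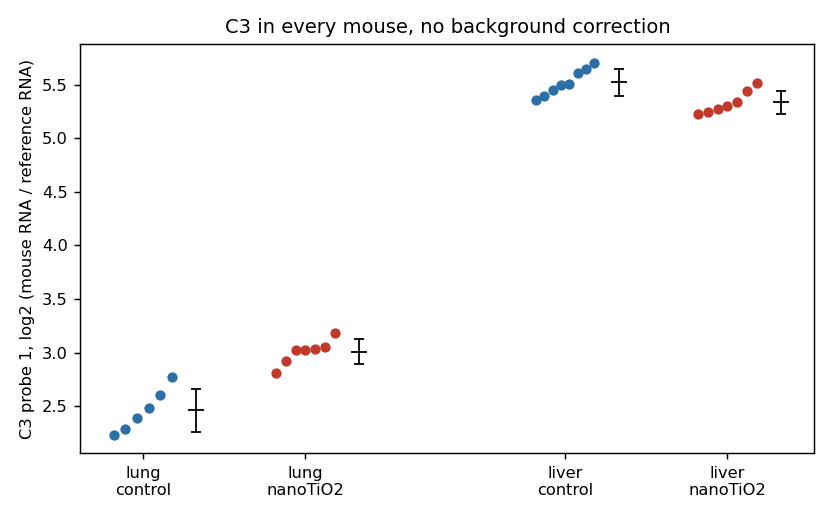
C3 probe 1 in every mouse. The vertical axis is the log2 ratio of mouse over reference RNA without background correction, each point is 1 mouse, and the black bar with whiskers beside each group is the mean and SD. The 7 exposed lungs sit between 2.81 and 3.18, all above the 6 control lungs, while exposed and control livers overlap above 5.

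C3 probe 2, which reads an upstream stretch of the same mRNA, did not separate the groups. It was a much dimmer probe, although well above background on all 13 lung arrays. Its Cy5 intensity in lung was 130 to 333, against 38080 to 135300 for C3 probe 1. The log2 ratios of C3 probe 2 ran from 0.79 over 1.27 to 1.31 in exposed lungs and from 0.69 over 0.88 to 1.34 in control lungs. The control value of 1.34 (mouse 26) was the highest of all 13. The difference was 0.24 ± 0.11 (SE, adjusted p = 0.606) without background correction and -0.19 (adjusted p = 0.65) under the planned correction. Its 95% interval without correction, 0.003 to 0.47, overlaps that of C3 probe 1, 0.37 to 0.72.

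C1r and C1s are the paired proteases of the C1 complex. C1r probe 1 had log2 ratios of 0.56, 0.96 and 1.07 (lowest, median, highest) in exposed lungs and of 0.41, 0.43 and 0.60 in control lungs. Exposed lung 7 fell inside the control range and the other 6 lay above it. The difference was 0.39 ± 0.07 (SE) or 1.31-fold without background correction (adjusted p = 0.0595), 0.31 under the planned correction (adjusted p = 0.254) and 0.39 with flagged backgrounds left out (adjusted p = 0.0478). C1r probe 2 had lower ratios but a full separation, at -0.19, -0.04 and 0.08 in exposed lungs against -0.52, -0.28 and -0.25 in control lungs. Its difference was 0.29 ± 0.05 (SE) or 1.22-fold without background correction (adjusted p = 0.0392), 0.27 under the planned correction (adjusted p = 0.0827) and 0.30 with flagged backgrounds left out (adjusted p = 0.0231). When single lungs were left out without background correction, C1r probe 2 passed only in the fit without exposed lung 7 and otherwise reached adjusted p-values up to 0.1.

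C1s probe 1 had log2 ratios of 0.24, 0.60 and 0.70 in exposed lungs and of 0.09, 0.16 and 0.34 in control lungs. Exposed lung 7 was again the only one within the control range. The difference was 0.36 ± 0.07 (SE) or 1.28-fold without background correction (adjusted p = 0.0915) and 0.29 under the planned correction (adjusted p = 0.25). C1s probe 2 ran from -0.27 over -0.06 to 0.21 in exposed lungs and from -0.84 over -0.41 to -0.29 in control lungs, without overlap. It differed by 0.44 ± 0.10 (SE) or 1.36-fold (adjusted p = 0.118), and by 0.39 (adjusted p = 0.25) under the planned correction. With slide as a fixed block and no correction C1s probe 2 passed, at 0.47 (adjusted p = 0.0338). Both C1s probes and both C1r probes were higher within each of the 3 slides with both groups, by 0.21 to 0.53. The 4 probes therefore had positive differences under both corrections, without passing the test under the planned one.

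The recognition chains of C1q depended on the background treatment. C1qa had log2 ratios of 3.19, 3.38 and 3.54 in exposed lungs and of 2.86, 3.12 and 3.45 in control lungs, and only 3 of 7 exposed lungs exceeded every control. The difference was 0.25 ± 0.10 (SE, adjusted p = 0.555) without background correction and -0.47 (adjusted p = 0.545, 95% interval -1.30 to 0.37) under the planned correction. C1qb had log2 ratios of 2.65, 2.82 and 3.21 in exposed lungs and of 2.29, 2.50 and 2.74 in control lungs, and 4 of 7 exposed lungs exceeded every control. It differed by 0.40 ± 0.11 (SE) or 1.32-fold (adjusted p = 0.314) without correction and by -0.27 (adjusted p = 0.739) with the planned one. The reference channel was higher on exposed arrays too at these probes, by 0.24 for C1qa and 0.19 for C1qb, against 0.51 and 0.59 in Cy5. The within-slide difference ranged from 0.03 to 0.65 for C1qb and from -0.04 to 0.46 for C1qa, lowest in both on slide 2, where control lungs 27 and 29 had the highest C1qa ratios of the controls.

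C2 and factor B supply the protease of the classical and the alternative C3 convertase. C2 probe 1 had log2 ratios of 4.03, 4.08 and 4.43 in exposed lungs and of 3.78, 3.90 and 4.04 in control lungs, with 5 of 7 exposed lungs above every control. C2 probe 2 had 3.13, 3.38 and 3.49 in exposed and 2.96, 3.10 and 3.41 in control lungs, and 3 of 7 lay above every control. The probes differed by 0.22 ± 0.07 (SE, adjusted p = 0.373) and 0.24 ± 0.07 (SE, adjusted p = 0.357) without correction, and by -0.06 (adjusted p = 0.812) and -0.31 (adjusted p = 0.54) under the planned correction. The uncorrected differences correspond to 1.17-fold and 1.18-fold, with 95% intervals of 0.08 to 0.37 and 0.09 to 0.40.

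Cfb had log2 ratios of 3.28, 3.51 and 3.86 in exposed lungs and of 3.04, 3.21 and 3.63 in control lungs. Only 1 exposed lung (mouse 12) lay above every control. The difference was 0.21 ± 0.11 (SE, adjusted p = 0.658) without correction and -0.18 (adjusted p = 0.656) with the planned one. Cfb varied with the slide, and within slides the uncorrected difference was 0.26 to 0.42. With slide as a fixed block and no correction it was 0.35 and passed (adjusted p = 0.0312). The reference channel of this probe was 0.40 higher on exposed arrays and Cy5 was 0.65 higher. The part of the reference channel in the Cfb difference was not tested.

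C3ar1 encodes the receptor for C3a, which myeloid cells carry. C3ar1 probe 1 had log2 ratios of -0.14, -0.0044 and 0.05 in exposed lungs and of -0.38, -0.25 and -0.07 in control lungs, and 5 of 7 exposed lungs exceeded every control. It differed by 0.21 ± 0.05 (SE) or 1.16-fold without correction (adjusted p = 0.216) and by 0.26 under the planned correction (adjusted p = 0.254). With the processed signals of the scanner software, where 74 probes (0.18%) passed, the difference of C3ar1 probe 1 was 0.74 or 1.67-fold, and it passed (adjusted p = 0.0419). This probe was well above background on all 13 lung arrays, but its signal was low. Its Cy5 intensity in lung was 79 to 110, against 66 to 80 for C3ar1 probe 2. The part of the background subtraction in the larger difference was not tested. C3ar1 probe 2 was well above background on only 2 of 13 lung arrays and on no liver array, and gave 0.06 (adjusted p = 0.686) without correction, 0.09 (adjusted p = 0.303) under the planned correction and 0.78 (adjusted p = 0.516) with processed signals.

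**Figure D2:**
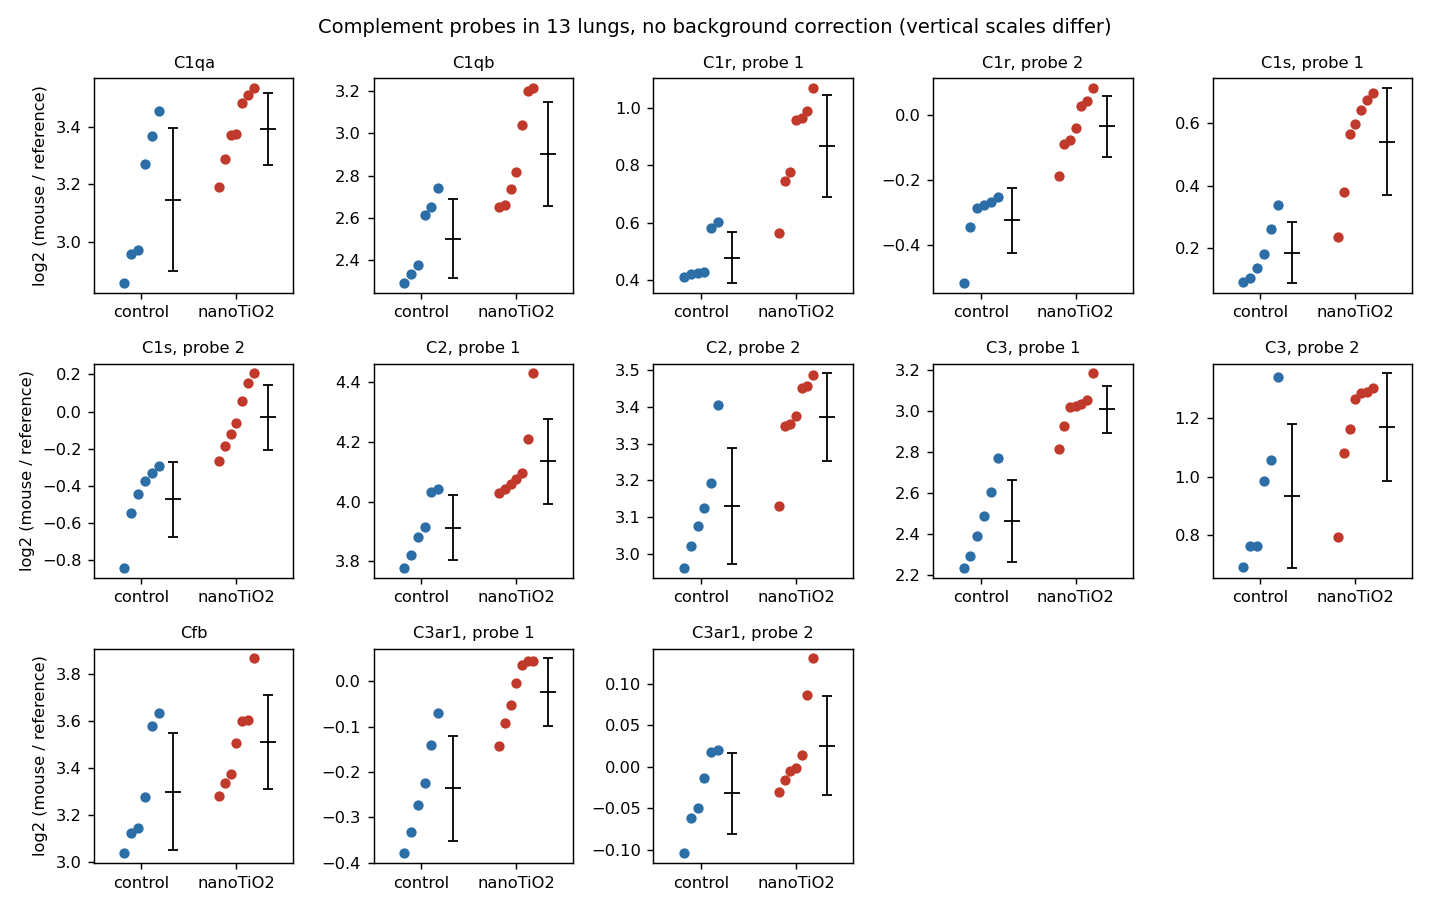
The 13 complement probes in lung. Each panel is a probe, each point a mouse, the vertical axis the log2 ratio of mouse over reference RNA without background correction, and the bar with whiskers the mean and SD (n = 6 control, n = 7 nanoTiO2). C1r probe 2, C1s probe 2 and C3 probe 1 show no overlap between the groups, whereas C1qa, Cfb and C3 probe 2 overlap widely.

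**Figure D3:**
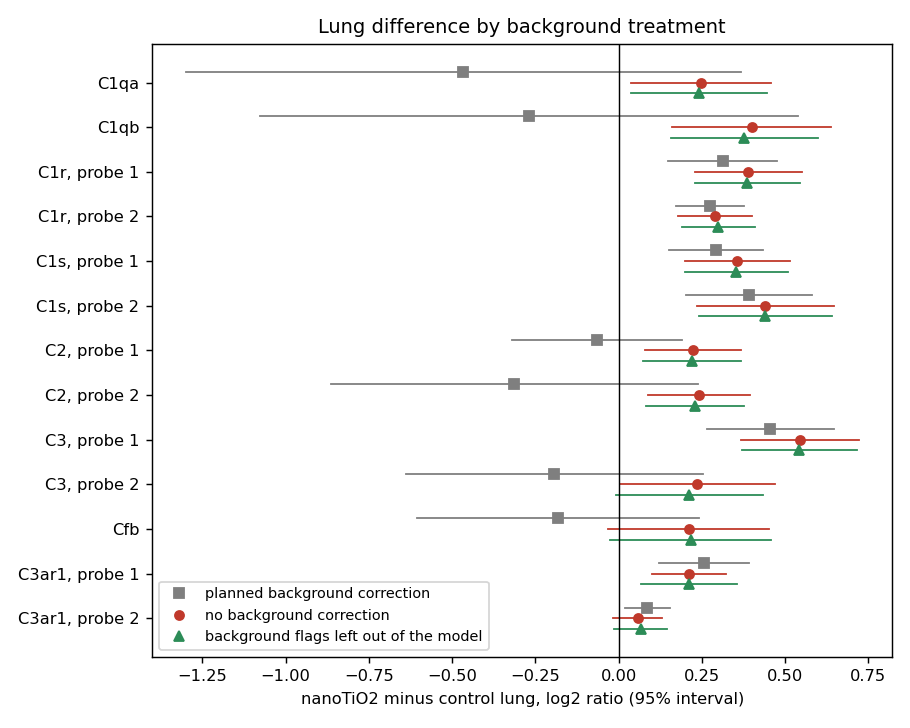
Difference between exposed and control lungs for each probe under the planned background correction, without background correction, and with flagged local backgrounds also left out of the background model. Points are log2 differences and lines are 95% intervals from limma. The probes of C3 (probe 1), C1r, C1s and C3ar1 are above 0 in all 3 fits, while those of C1qa, C1qb, C2, Cfb and C3 probe 2 change sign under the planned correction and have long intervals there.

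Over 12 processing alternatives, not counting fits without 1 lung, C3 probe 1 was higher in exposed lungs each time, by 0.40 to 0.61, and passed the test in 4. These were the fits without correction, with processed signals, with the authors' table (0.172% of all probes passed) and with flagged backgrounds left out. C1r probe 1 and C1s probe 1 were higher in all 12 as well, by 0.27 to 0.42 and 0.28 to 0.40, with 1 pass and none. C1qa, C1qb and Cfb were higher in 6 of the 12. When loess was replaced by centering each array's median, no probe on the whole array passed in lung.

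The other genes of the pathway were taken from a list of 67 current and older symbols, 42 of which were found, on 62 probes. Of these 41 were well above background on at least 50% of the lung arrays, exposed and control together. None of the 62 passed the test in lung under either correction (0.0534% and 0.206% of all probes did). Without correction 46 of 62 were higher in exposed lungs, with a median of 0.06, and 11 higher and 2 lower had an unadjusted p under 0.05. Of all 41172 probes, 50.8% were higher without correction, and 3375 had an unadjusted p under 0.05 from limma. The planned correction left 25 of the 62 higher, with a median of -0.02. C1qc, the remaining chain of C1q, differed by 0.15 (adjusted p = 0.643) without correction and by -0.17 (adjusted p = 0.633) with the planned one. C4b, cut by C1s, differed by 0.24 (adjusted p = 0.607) without correction and by -0.0003 (adjusted p = 0.999) as planned. Cfi, the protease that inactivates C3b, was named after its values were seen, and had 0.56 (adjusted p = 0.473) without correction and 0.09 (adjusted p = 0.871) as planned. Hc, the gene of C5, had -0.09 (adjusted p = 0.831) without correction and -0.42 (adjusted p = 0.333) as planned. Serping1, the inhibitor of C1r and C1s, had -0.01 (adjusted p = 0.97) without correction and -0.37 (adjusted p = 0.374) as planned.

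Markers of the cells that make complement were examined in the same 13 lungs without background correction. The hepatocyte list (8 genes found of 10 symbols) averaged a log2 ratio of 0.75 to 2.75 in exposed and 0.45 to 1.29 in control lungs, with a median difference of 0.82 and no probe passing. Its 8 probes included Alb1 (albumin), well above background on every lung array, and Ttr (transthyretin), well above on 1. Hepatocyte values were highest in exposed lungs 1, 19 and 13, at 2.75, 2.23 and 2.06. C3 probe 1 in these 3 lungs was 3.03, 3.06 and 2.93. In exposed lung 23 the list averaged 1.37, also above every control lung, and C3 probe 1 was 3.02. In exposed lungs 12, 20 and 7 the list averaged 0.75, 0.92 and 1.17, within the control range. C3 probe 1 in these was 3.18, 3.02 and 2.81. The macrophage list (10 genes of 14 symbols, 17 probes) averaged 1.48 to 1.62 in exposed and 1.39 to 1.50 in control lungs. Marco, a scavenger receptor, and both probes of Ms4a7 passed as higher, by 0.55, 0.65 and 0.68, and Siglecf, a surface lectin of alveolar macrophages and eosinophils, passed as lower, by -0.71. In the monocyte list Cd14 passed, with 0.53. The monocyte list averaged 0.80 to 1.03 in exposed and 0.75 to 0.92 in control lungs. The fibroblast list averaged -0.39 to -0.17 and -0.40 to -0.21, and the neutrophil list 1.36 to 2.16 and 1.47 to 2.43, with median differences of 0.03 and -0.13. The lung epithelium list averaged 4.83 to 5.28 and 4.88 to 5.20. No probe of these last 3 lists passed. Under the planned correction no probe of any of these lists passed. There Marco had 0.03 (adjusted p = 0.969), the Ms4a7 probes 0.53 and 0.50 (adjusted p = 0.219 and 0.284), Siglecf -1.20 (adjusted p = 0.243) and Cd14 0.51 (adjusted p = 0.219). The planned median differences were 0.35 for the hepatocyte, -0.07 for the macrophage, 0.03 for the monocyte, 0.05 for the fibroblast, -0.47 for the neutrophil and -0.23 for the lung epithelium list. The part of these cell types in the complement differences was not tested beyond these values.

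In the livers of the exposed mice no probe passed in this comparison under the planned correction or without correction (0% of 41174 for each), with 3393 and 1450 probes at an unadjusted p under 0.05. The complement probes were therefore not called in liver either. C3 probe 1 had log2 ratios of 5.23, 5.30 and 5.51 in exposed livers and of 5.36, 5.50 and 5.71 in control livers. The groups overlapped, with 5 of 7 exposed livers below every control. It differed by -0.18 ± 0.06 (SE, adjusted p = 1, exact permutation p = 0.00979) and was lower within each of the 4 slides. Cfb had 4.77, 4.95 and 5.12 in exposed and 4.86, 5.15 and 5.39 in control livers, a difference of -0.21 ± 0.08 (SE, adjusted p = 1, exact permutation p = 0.0284). All 13 complement probes had a negative uncorrected difference in liver, from -0.21 to -0.01 with a median of -0.08, whereas 49% of all probes were positive. The livers of the groups were fully separated for no complement probe. Without correction 5 probes on the array (0.0122%) were higher and 8 (0.0195%) lower in every exposed liver, and with the planned correction 15 (0.0365%) and 9 (0.0219%). As planned, 9 complement probes were positive and 4 negative, with C3 probe 1 at -0.14 and Cfb at -0.09. The hepatocyte list was lower in exposed livers as well for all 8 probes without correction, with a median of -0.20.

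The difference between the responses of the tissues was tested over all 28 arrays. As planned, 7 probes passed (0.017%), with 6 (0.0146%) responding more in lung, and no complement probe was among them. The largest planned difference of a complement probe in favor of the lung was that of C3 probe 1, 0.59 (adjusted p = 0.159). Without background correction 49 probes passed (0.119%), 44 of them (0.107%) with the higher response in lung. These included C3 probe 1, with 0.73 ± 0.10 (SE, adjusted p = 0.000242), and C1s probe 1, with 0.44 ± 0.09 (SE, adjusted p = 0.0332). C1s probe 2 followed at 0.54 ± 0.11 (SE, adjusted p = 0.0523). With flagged backgrounds left out 60 probes passed (0.146%), of which 55 (0.134%) were higher in lung, including C3 probe 1 and both C1s probes. All 13 complement probes had the higher uncorrected response in lung, with a median of 0.41, against 50.1% of all probes. The choice of members with earlier results known limits this count too. The lung and liver contrasts share most of their mice but no array.

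**Figure D4:**
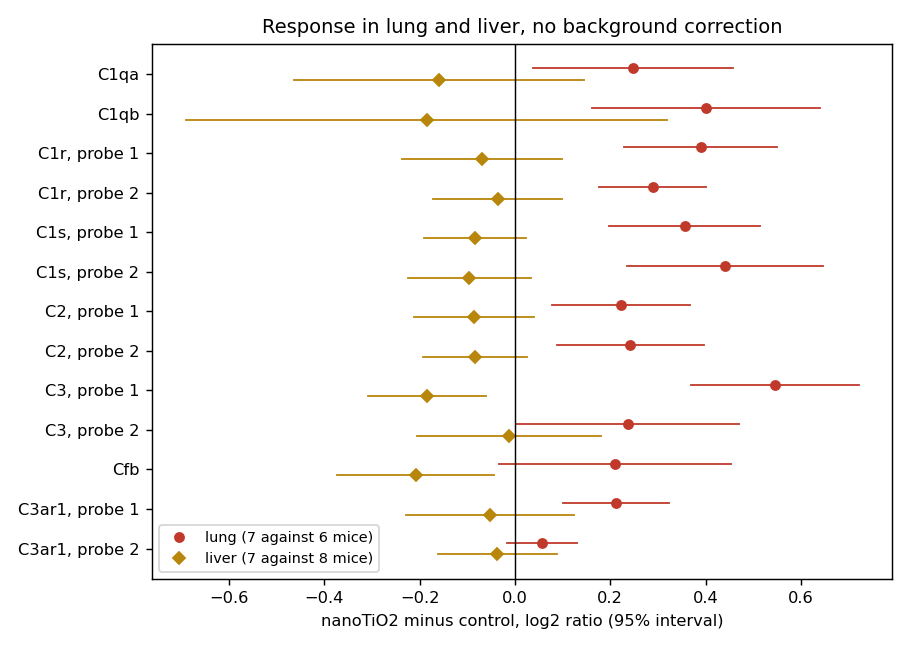
Difference between exposed and control mice for each complement probe in lung and in liver, without background correction. Points are log2 differences and lines are 95% intervals from limma. All lung points lie above 0 and all liver points lie below it, with the widest gap, 0.73, at C3 probe 1.

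Control lung was also compared with control liver, by ratios to the reference in mice that breathed filtered air. Lung and liver arrays lay on different slides, so that slide set and tissue cannot be told apart. With the planned correction 22298 of 41172 probes passed (54.2%), 10788 of them (26.2%) lower in lung, and 10 of the 13 complement probes passed, all 10 lower in lung. C3 probe 1 was 7.64-fold lower in lung (log2 difference -2.93) and C3 probe 2 4.85-fold lower. The C1s probes were 3.23-fold and 4.34-fold lower, and the C1r probes 4.04-fold and 2.87-fold. Cfb was 3.23-fold lower and the C2 probes 1.89-fold and 2.00-fold. C3ar1 probe 1 was 1.20-fold lower (adjusted p = 0.0074). The C1q chains did not follow this order, with planned differences of 0.02 for C1qa (adjusted p = 0.975) and 0.17 for C1qb (adjusted p = 0.725). Without background correction, where 61.8% of all probes passed and 30.5% were lower in lung, 11 complement probes passed. The folds were then larger for several probes. C3 probe 1 was 8.32-fold and C3 probe 2 8.71-fold lower, and the C2 probes 2.36-fold and 3.11-fold. The C1s probes were 3.56-fold and 5.31-fold lower, the C1r probes 4.54-fold and 3.55-fold, and Cfb 3.58-fold. The planned values include control livers 24, 26 and 27, on which the correction failed. C1qa was 1.95-fold lower in lung (-0.96, adjusted p = 2.63e-07) and C1qb had -0.43 (adjusted p = 0.0701). Without correction the C3 probe 1 difference between control tissues was -3.06, and the exposure difference in lung was 0.55. The highest exposed lung, at 3.18, was below the lowest liver, at 5.23. The reference channel was not equal between the tissues. With each channel centered on the array's median, it averaged 1.45 for Cfb in control lungs and 4.60 in control livers. Cy5 averaged 4.34 and 9.47 there. For C3 probe 1 the reference averaged 7.60 and 6.20, and Cy5 9.10 and 11.73. For C1qa the reference averaged 0.08 and -0.20 and Cy5 2.92 and 3.33, and for C1qb 0.15 and 1.23 against 2.38 and 3.49. The Cy3 intensity of C1qa was low, at 78 to 89.5 in control lungs and 47.5 to 76.5 in control livers. That of C1qb was 81 to 91 and 100 to 273. The folds between tissues are thus relative to the reference, and the part of the reference channel in them was not tested.

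**Figure D5:**
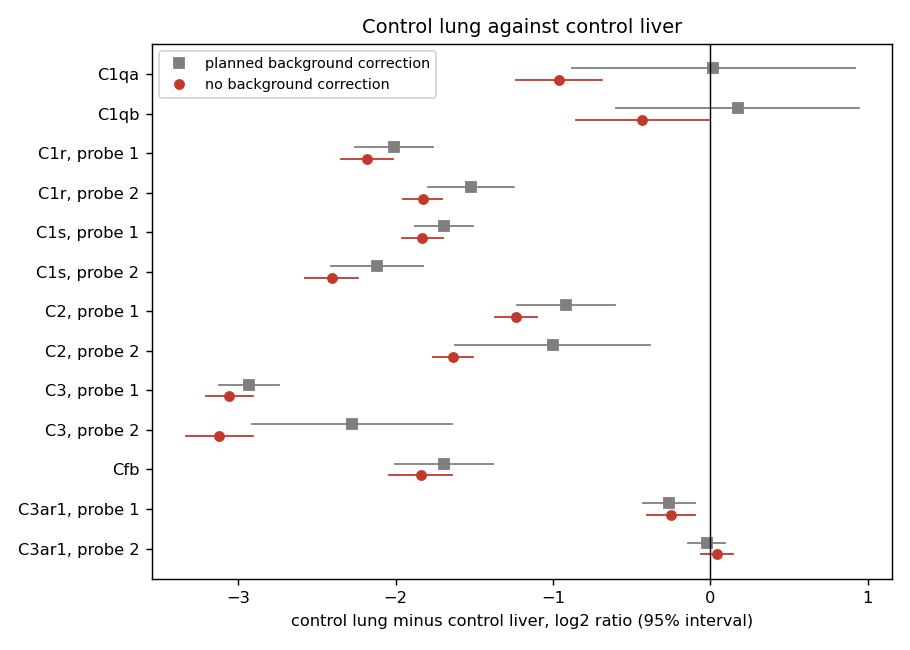
Control lung minus control liver for each complement probe under the planned correction and without background correction. Points are log2 differences and lines are 95% intervals from limma. C3, C1r, C1s, Cfb and C2 lie far below 0 in both fits, C1qa and C1qb lie near 0 with long intervals under the planned correction, and C3ar1 lies near 0.

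Within the 13 lungs the members did not all vary together. Over the log2 ratios without background correction, C1r probe 1 and C1s probe 1 had a Pearson r of 0.942, and of 23361 probes compared C1s was the most like C1r and C1r the most like C1s. C3 probe 1 had an r of 0.893 with C1s probe 1. The genes most like C3 were Fuz (0.928), C1s and Vnn3 (0.889). C1qa and C1qb had an r of 0.854 with each other, 0.862 within exposed and 0.859 within control lungs, but the genes most like them were others, Zdhhc12 for C1qa (0.879), and Taf9b for C1qb (0.917). C3 probe 1 and C1qa had an r of only 0.347, and of -0.109 within exposed and -0.506 within control lungs. The gene most like C3ar1 was Trem2 (0.904), that most like C2 was Tnfaip3 (0.886), and that most like Cfb was Tmem129 (0.922). Under the planned correction C1r and C1s stayed nearest to each other (0.912), but the other nearest genes changed. They were then Clec5a for C3ar1 (0.841), Ccl19 for C2 (0.956) and Pitpnc1 for Cfb (0.942). For C3, C1qa and C1qb they were Trem2 (0.882), Ceacam2 (0.98) and Cd83 (0.983). These values describe 13 arrays that hold both groups and share their reference RNA, loess normalization and slides.

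Promoter sequence, 250 bases upstream of a start in the RefSeq table for GRCm38.p6, was found for 5 of the 8 members (C1qb, C1r as C1ra, C1s as C1s1, C3 and C3ar1). The C3 promoter is shown because C3 probe 1 had the largest lung difference of the complement probes without correction. It lies at chr17:57228137-57228386 on the minus strand. The capitals mark a match to TTGCNNAA, the core letters of a C/EBP site, searched on both strands.
C3 promoter: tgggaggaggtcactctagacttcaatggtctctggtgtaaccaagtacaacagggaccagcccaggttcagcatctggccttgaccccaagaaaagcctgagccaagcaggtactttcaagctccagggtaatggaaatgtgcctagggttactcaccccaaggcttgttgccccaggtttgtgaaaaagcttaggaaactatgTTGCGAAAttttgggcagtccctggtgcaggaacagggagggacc

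The match begins 45 bases before the start. These letters occur in 9.56% of 32851 promoters of the same length, among them 1 of the C1s windows. The STAT pattern TTCNNNGAA occurs in 7.02% and in none of the 5 matched genes. A match describes letters and is no evidence of binding.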

How the data were processed

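Lung and liver mRNA arrays of the study were used, and its miRNA arrays were not used here. The authors deposited unnormalized spot intensity values from the scanner software. They also deposited a processed table in log2 units made by LOWESS, used as an alternative, whose values correlated at 0.9937 to 0.9979 per array with the uncorrected values. That table's column medians were -0.0422 to -0.0222, and no other background step is given in the sources used here. An array held 43379 spots other than controls.

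For each spot the median signal was background-corrected by normexp with an offset of 50, leaving spots marked by the scanner software out of the background model, and normalized by loess within each array. Control and marked spots were dropped, and replicate spots were averaged per probe. R 4.3.3, limma 3.58.1 and matplotlib 3.10.9 were used. Groups were compared with lmFit and eBayes, with Benjamini-Hochberg adjustment over all probes and a threshold of 0.05. A fold is taken from the fitted log2 difference. MAANOVA, named in the methods, was not used. Single values also have exact two-sided permutation tests (1716 splits in lung, 6435 in liver). The fits were tested on simulated data. The number of arrays limits the precision, and p-values measure the spread between mice.

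Named genes were all members with every probe, a complement list with C1qc, C4, C5 and Serping1 among those always named, and for likeness the 3 nearest gene names of the brightest probe of each member. Some genes that this rule names are not reported here. Members and lists were chosen with earlier results of these data known. Both tissues were measured in 12 mice, and the study states that both organs came from the same animals. The deviations from the group means of these pairs correlated at -0.011 to 0.179 (median 0.0665) over probes under the planned correction, and at -0.048 to 0.224 without correction.

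Alternatives were normexp on all spots, no background correction, processed signals of the scanner software, centering on the median, the authors' table, a filter for probes above background on 50% of the arrays, 1 probe per gene name, slide or mouse as a block, and leaving out each array. Added after the values were seen were leaving flagged local backgrounds out of the background model, leaving out the 6 arrays with a failed background model, and combining no correction with a block or with leaving out an array.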

Additional observations from a re-analysis of the deposited data

Results flagged for a closer look

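Single values were searched in 52 combinations of group and probe, under the planned correction and without correction, and about 1 in 20 such groups shows a distant value by chance. At C1r probe 2 (A_52_P114260), control lung 26 had an uncorrected log2 ratio of -0.52, with its nearest neighbor at -0.34 and the far end of the group at -0.25. At C2 probe 2 (A_52_P428699), exposed lung 7 had 3.13, with the nearest exposed lung at 3.35 and the highest at 3.49. For 2 probes the uncorrected response differed between lung and liver by a test of the difference itself. C3 probe 1 differed by 0.73 (adjusted p = 0.000242 from limma, 7 of 7 exposed lungs above every control lung and 5 of 7 exposed livers below every control liver). C1s probe 1 differed by 0.44 (adjusted p = 0.0332, 6 of 7 and 2 of 7). Under the planned correction these differences were 0.59 (adjusted p = 0.159) and 0.25 (adjusted p = 0.295).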

How the results depend on the processing

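The failed background model on 6 arrays is the main limit of these results. In lung, the count of complement probes that passed was 0 under the planned correction, 2 without background correction, 2 with the scanner software's processed signals (C3 probe 1 and C3ar1 probe 1), 1 with the authors' table, 3 with flagged local backgrounds left out and 3 without correction with slide as a fixed block (C1r probe 2, C1s probe 2 and Cfb). For lung against liver it was 0 as planned, 2 without correction, 1 with processed signals, 2 with the authors' table, 3 with flagged backgrounds left out, 1 without the 6 arrays with a failed model, and 3 without correction with mouse as a replicate block. With mouse as a replicate block under the planned correction it was 0, and the probes passing on the whole array rose from 7 to 13. For control lung against control liver it was 10 as planned and with that block, and 6 with 1 probe per gene name, where only 8 probes were tested. Leaving out each array gave 0 to 0 in lung and in liver, 0 to 1 for lung against liver (1 without control liver 26) and 10 to 10 for the control tissues. Without correction it gave 1 to 4 in lung, with 4 in the fit without exposed lung 7 and 1 in each of the others, which was C3 probe 1. The whole-array lung count was 22 as planned, 15 with normexp on all spots or slide as a fixed block, 25 with slide as a random block, 74 with processed signals, 71 with the authors' table, 49 without the failed arrays, 86 without correction with slide, and 0 with median centering (558 at an unadjusted p under 0.05). For lung against liver it was 35 with processed signals, 49 with the authors' table, 34 without the failed arrays, 57 without correction with mouse as a block, and 0 with median centering.

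The lung differences of 6 probes that were negative as planned turned positive. In the order C1qa, C1qb, Cfb, C2 probe 1, C2 probe 2 and C3 probe 2, they were 0.25, 0.40, 0.21, 0.22, 0.24 and 0.24 without correction. With processed signals they were 0.01, 0.18, 0.10, 0.17, 0.11 and 0.15. With the authors' table they were 0.23, 0.38, 0.21, 0.21, 0.22 and 0.21, and with flagged backgrounds left out 0.24, 0.38, 0.22, 0.22, 0.23 and 0.21. Without exposed lungs 1, 12 and 23 they were 0.28, 0.47, 0.17, 0.15, 0.16 and 0.18, and without correction with slide 0.28, 0.39, 0.35, 0.25, 0.23 and 0.18. C2 probe 1 was 0.06 with median centering, and between -0.10 and 0.02 when each lung was left out, positive only without exposed lung 12. In liver, C3 probe 1 and Cfb were both 0.25 with median centering. In control lung against control liver, C1qa was -0.07 with normexp on all spots, -0.96 without correction, -1.11 with processed signals, -1.06 with the authors' table, -0.73 with flagged backgrounds left out, -0.63 without the failed arrays and -0.97 without correction with the mouse block. It was -0.04 and -0.03 without control lungs 27 and 29, and -0.26 and -0.25 without control livers 24 and 26, in a range of -0.26 to 0.14 over all arrays left out. C1qb was -0.43 without correction, -0.50 with the authors' table, -0.37 with flagged backgrounds left out, -0.30 without the failed arrays, -0.44 without correction with the mouse block and -0.02 without control liver 24, in a range of -0.02 to 0.31. Beyond the failed background model, the cause of these changes was not tested.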
